A study of Mus musculus with 18 samples.

Results

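The genes described here encode the subunits of potassium channels. They were chosen by symbol, as every gene named Kcn followed by letters and a number, with Kcne2 and Kcnj8 left out. The rule found 90 of the 50559 genes in the table, and 80 of the 90 were among the 18452 genes that passed the filter on low counts. The other 10 were Kcna7, Kcna10, Kcne1, Kcne3, Kcnj1, Kcnj15, Kcnk15, Kcnk16, Kcnk18 and Kcnv2, whose highest count in any library was between 2 and 24. RNA was sequenced from 18 libraries of wild-type mouse thalamus, 6 in each of 3 groups. The intervene group had received Coll IV and remodelin, the model group Coll IV, and the control group saline. Coll IV is not spelled out in the labels, remodelin is an inhibitor of NAT10, which acetylates RNA, and the study is one of bleeding into the thalamus. The labels used here state no strain, age, sex, dose or time after treatment, and nothing says that each library is a separate animal, so p-values measure the spread between these libraries.

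Potassium channels let potassium leave the cell, and in neurons they set the resting potential, end the action potential and control the rate of firing. The pore is built from alpha subunits. Voltage-gated families (Kcna to Kcnd, Kcnq and Kcnh) open on depolarization, Kcnma, Kcnn and Kcnt genes encode channels opened by calcium or sodium, Kcnj genes encode inward rectifiers and Kcnk genes encode leak channels. Kcnf, Kcng, Kcns and Kcnv genes encode silent alpha subunits, which form no channel alone and modify the Kcnb channels, and Kcnab, Kcnip, Kcne and Kcnmb genes encode auxiliary subunits that attach to a pore. In the thalamus such channels take part in the switch between tonic and burst firing, and in astrocytes the inward rectifier encoded by Kcnj10 takes up potassium released by neurons.

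In model and control the libraries numbered 4 to 6 stood apart from those numbered 1 to 3 in markers of the thalamus, less so in intervene, and most results below rest on that division. Of 14 thalamic markers, 1 was lower in libraries 4 to 6 of intervene, 8 in model and 10 in control, and 0 were higher (edgeR). In intervene 7 of the 14 had a positive difference, the median was -0.05 on the log2 scale, and the summed markers overlapped, at 388 to 545 CPM in libraries 4 to 6 and 469 to 553 CPM in libraries 1 to 3. Tcf7l2, a transcription factor of thalamic neurons, had 48.6, 32.8 and 36.7 CPM in intervene libraries 4 to 6, against 96.4, 91.4 and 60.7 CPM in intervene libraries 1 to 3. In model, libraries 4 to 6 had 8.01, 10.5 and 4.80 CPM of Tcf7l2, against 53.6, 144 and 72.5 CPM in model libraries 1 to 3. The control libraries 4 to 6 had 4.68, 3.82 and 5.05 CPM of Tcf7l2, against 98.7, 102 and 102 CPM in control libraries 1 to 3. The 2 sets of Tcf7l2 did not overlap in any group, the gap was widest in control, and in intervene Tcf7l2 had the lowest difference of the 14 markers (-1.07). Slc17a7, a glutamate transporter of cortical and hippocampal neurons, ran the other way in control, with 1583 to 1670 CPM in libraries 4 to 6 and 53.5 to 557 CPM in libraries 1 to 3. It lay between 1091 and 1254 CPM in model libraries 4 to 6, against 416 to 861 CPM in model libraries 1 to 3. The intervene sets overlapped, with 512 to 1004 CPM in libraries 4 to 6 and 278 to 698 CPM in libraries 1 to 3. Of all genes, 7.16%, 9.78% and 19.6% were lower in libraries 4 to 6 of intervene, model and control (edgeR). The shares higher were 7.76%, 8.91% and 18.6% in that order. Some other marker lists also differed between the sets beyond these shares, though not in every group. Of 9 striatal markers, 8 were higher in libraries 4 to 6 of model and 0 were called in intervene. In control 1 was lower (11.1%), under the share of all genes. Habenula markers were lower for 7 of 8 in model and in control and for 1 in intervene. Of 10 oligodendrocyte markers, 8 were lower in model, 9 in control and 4 in intervene. Ependyma markers were lower for 7 of 7 in control, 2 in model and 0 in intervene. Choroid plexus markers were lower for 4 of 9 in control, 7 in model and 0 in intervene. Of 5 blood markers, 3 were lower in control, 5 in model and 0 in intervene. Endothelial markers were lower for 5 of 9 in intervene and for 0 in model and in control. The part of these lists in the channel values was not tested. All libraries carry the thalamus label, yet Tcf7l2 was low in those numbered 4 to 6 of model and control. Gbx2, another thalamic marker, was at 0 in control 5. The 14 thalamic markers still summed to 195 to 283 CPM in model and 166 to 176 CPM in control libraries 4 to 6. In libraries 1 to 3 the sum was 460 to 692 CPM in model and 584 to 705 CPM in control. Between the sets, 6 of the 14 were not called in model and 4 in control. Control 1 also stood apart, with 580 CPM of the striatal marker Ppp1r1b against 41.4 and 66.4 CPM in controls 2 and 3, and the deepest sequencing (118461420 counts, against 28481225 to 56878946 in the other 17 libraries). The labels give no reason for the division by number. It was taken up because earlier results of these libraries had shown it, so its p-values give its size for each gene and are no independent evidence that it exists. In bulk tissue, fewer cells of a type and less RNA per cell cannot be told apart.

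Levels of different genes are compared as CPM, the counts of a gene relative to the scaled library total, per kilobase of exon. On this scale the most abundant channel transcript was Kcnab2, which encodes a beta subunit of the Kcna channels, at a mean of 72.6 over the 18 libraries (39.98 to 95.9). Kcnk1, a leak channel, followed at 57.1 (37.2 to 71.3). The inward rectifiers were led by Kcnj4, a strong rectifier, at 38.4 (3.59 to 73.1) and by the astrocytic Kcnj10 at 35.3 (24.8 to 46.7). These 2 means were close while their ranges were not: Kcnj4 differed far more between libraries. Kcnip2, Kcnip3 and Kcnip4, calcium-binding subunits of the Kcnd channels, had means of 33.1, 28.1 and 25.9. Among the alpha subunits that open on depolarization, Kcna1, a channel of axons, was the most abundant at 28.2 (16.1 to 42.9), followed by Kcnc4 at 16.2 and Kcna6 at 15.7, and Kcnc1 had 12.1. Kcnh3, an ELK-type channel, led its family at 13.2 (0.707 to 27.9), and Kcnh2 and Kcnh1 followed at 6.68 and 3.77. The KCNQ family carries the M-current, a slow current that limits repetitive firing, and included Kcnq3 at 6.30 and Kcnq5 at 5.93. Kcnv1 at 11.1 (1.52 to 26.0) and Kcnf1 at 10.7 (4.42 to 25.9) led the silent subunits, with Kcns1 at 5.18 and Kcns2 at 4.19. Kcnma1, the large-conductance calcium-activated channel, had 7.41 (4.06 to 11.5), the sodium-activated Kcnt1 had 5.44 and the small-conductance Kcnn2 had 1.97. After Kcnk1, the leak channels Kcnk2, Kcnk12 and Kcnk3 had 10.5, 7.95 and 5.22. Several of these genes do not differ from their neighbours in the order beyond their spread over libraries: Kcnip2, Kcnip3 and Kcnip4 overlapped, as did Kcnv1 and Kcnf1.

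**Figure D1:**
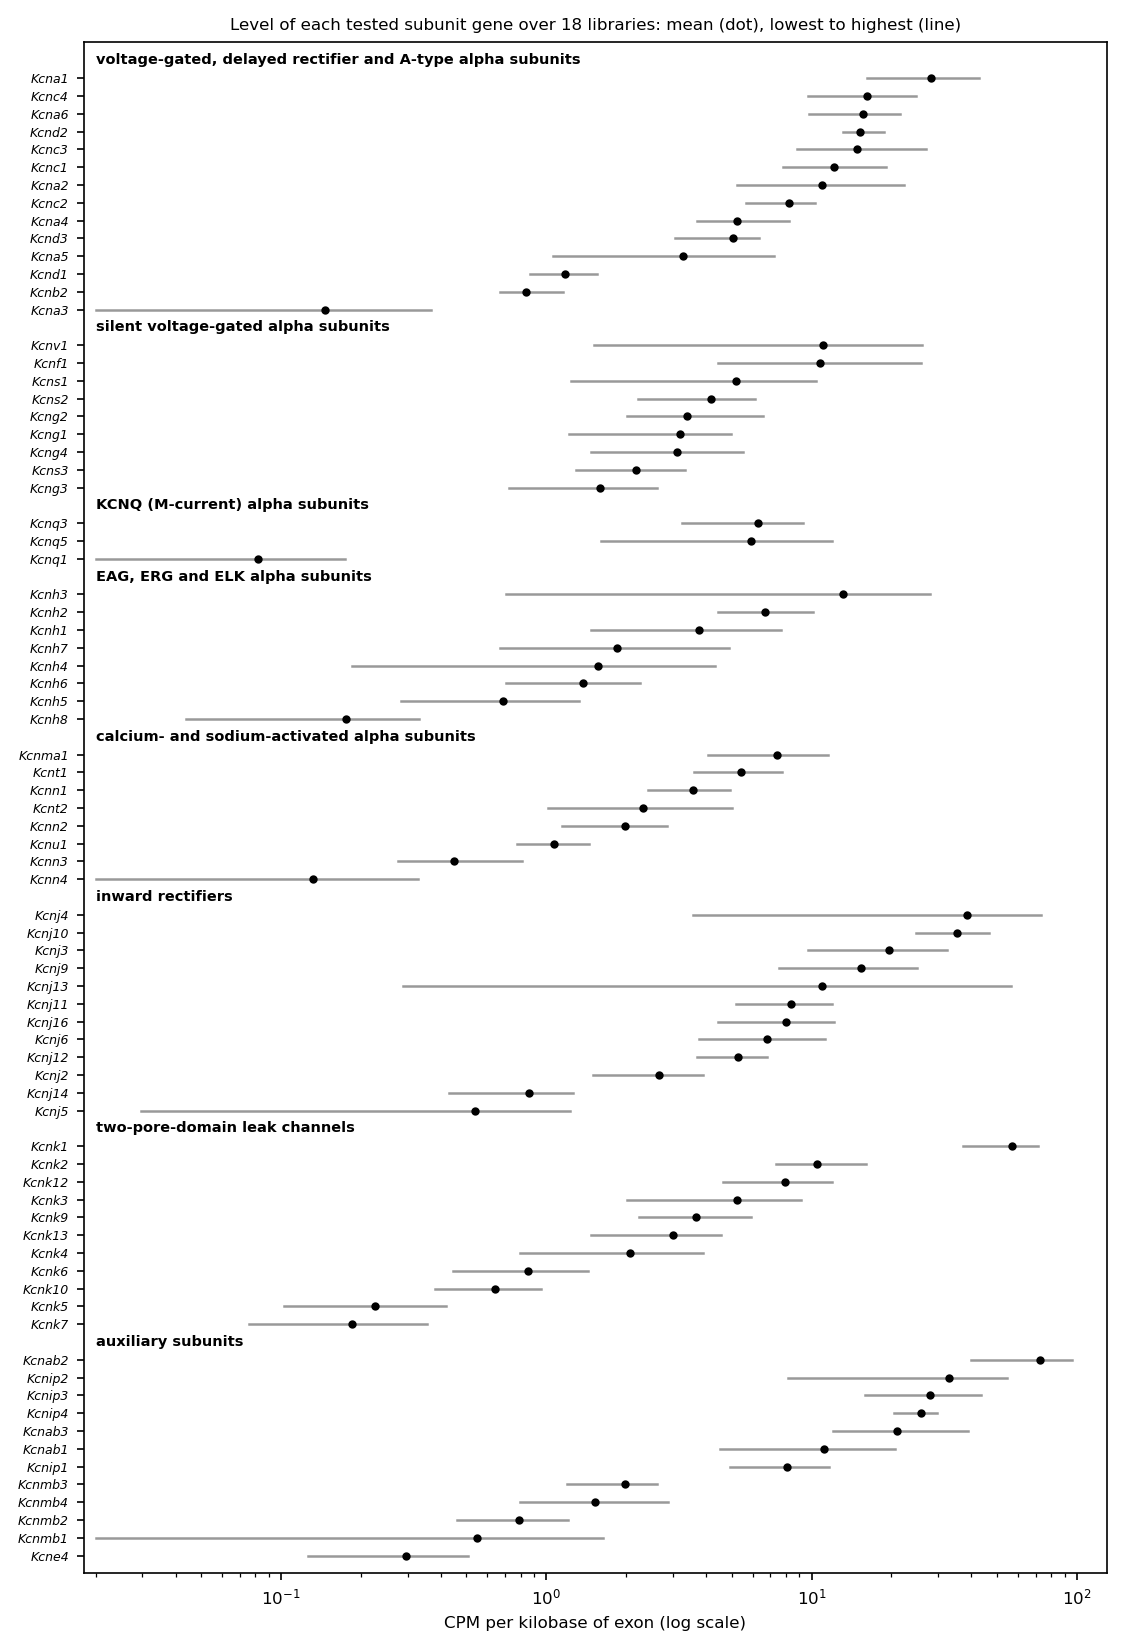
Level of 77 of the 80 tested subunit genes in CPM per kilobase of exon (log axis), ordered within each family; the dot is the mean over 18 libraries and the line runs from the lowest to the highest library, drawn from 0.02 for the 4 genes that reach that value or less. Kcnab2 and Kcnk1 have the highest means (72.6 and 57.1), and Kcnj13, Kcnh3, Kcnh4 and Kcnj5 have some of the longest lines.

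Over all 6 libraries of a group, no channel gene passed the test in any of the 3 group comparisons, and neither did any other gene (0% of 18452 in each; edgeR quasi-likelihood test, Benjamini-Hochberg adjusted p under 0.05). At an unadjusted p under 0.05 there were 0 of the 80 channel genes in intervene against model, 1 in model against control and 9 in intervene against control, beside 531, 310 and 1551 of all genes, and DESeq2 also called 0 channel genes in each. Kcnk6, a leak channel, had the lowest p in intervene against model and in intervene against control. It ran from 1.85 to 3.11 CPM (median 2.81) in intervene, from 2.29 to 4.97 CPM (median 3.51) in model and from 3.08 to 5.99 CPM (median 4.26) in control. The highest intervene library was just above the lowest control library. The log2 difference was -0.39 ± 0.20 (SE; edgeR adjusted p = 0.988) in intervene against model and -0.70 ± 0.20 (adjusted p = 0.362) in intervene against control. Kcnc2, a channel of fast-spiking neurons, had medians of 57.3 CPM in model and 65.0 CPM in control, with a difference of -0.23 ± 0.11 (edgeR adjusted p = 1.00).

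Kcnj13, an inward rectifier known from the choroid plexus and the retinal pigment epithelium, had the largest difference in model against control, 2.57 ± 1.09 on the log2 scale (edgeR adjusted p = 1.00), and 3.14 ± 1.11 in intervene against control (adjusted p = 0.499). It had 1.01, 33.7 and 24.2 CPM in intervene libraries 4 to 6, against 7.28, 71.7 and 2.55 CPM in intervene libraries 1 to 3. The model libraries 4 to 6 had 1.56, 0.652 and 0.630 CPM, against 24.0, 33.9 and 34.1 CPM in model libraries 1 to 3. Control libraries 4 to 6 had 1.28, 0.364 and 1.13 CPM, against 7.10, 3.62 and 2.02 CPM in control libraries 1 to 3. The groups overlapped, and the lowest values were those of control 5, model 6 and model 5. The summed CPM of 9 choroid plexus markers also moved, between 135 and 4090 CPM in intervene libraries 4 to 6, 62.9 and 115 CPM in model libraries 4 to 6, and 3.85 and 6.78 CPM in control libraries 4 to 6. In libraries 1 to 3 the sum was 97.1 to 10394 CPM in intervene, 3334 to 5632 CPM in model and 66.4 to 755 CPM in control. Their part in the Kcnj13 values was not tested. Exons of Kcnj13 share 49.1% of their bases with Gigyf2 on the opposite strand in the GENCODE M21 annotation, and whether counting used strand is not stated, so reads of the pair may not be separated.

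Between the sets, the channel genes moved most in control. In intervene libraries 4 to 6 against 1 to 3, 2 of the 80 tested genes were higher (background 7.76% of all genes) and 8 lower (7.16%), 12.5% called in all against 14.9% of all genes. The model sets had 13 higher (8.91%) and 10 lower (9.78%), 28.8% called in all against 18.7%. The control sets had 31 higher (18.6%) and 12 lower (19.6%), 53.8% called in all against 38.2%. The median log2 difference of the channel genes was -0.08 in intervene, 0.13 in model and 0.32 in control, while that of all genes was -0.01, -0.01 and -0.02. No gene was called in opposite directions in 2 groups, and 30 genes were called in none. All 13 genes higher in model were also called higher in control (100% of the model list and 41.9% of the control list), and 7 lower genes were shared (70% and 58.3%). The matching counts over all genes were not computed. Neither this sharing, the lack of opposite calls nor the number called in none is thus shown to be particular to the channel genes. Without control 1, the control sets had 28 higher and 9 lower. Leaving out single libraries moved the model count of 23 to between 8 (without model 2) and 28, with 11, 9, 15 and 10 without models 3, 4, 5 and 6. It moved the intervene count of 10 to between 2 (without intervene 1) and 13, with 6, 4 and 3 without intervene 3, 5 and 6.

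**Figure D2:**
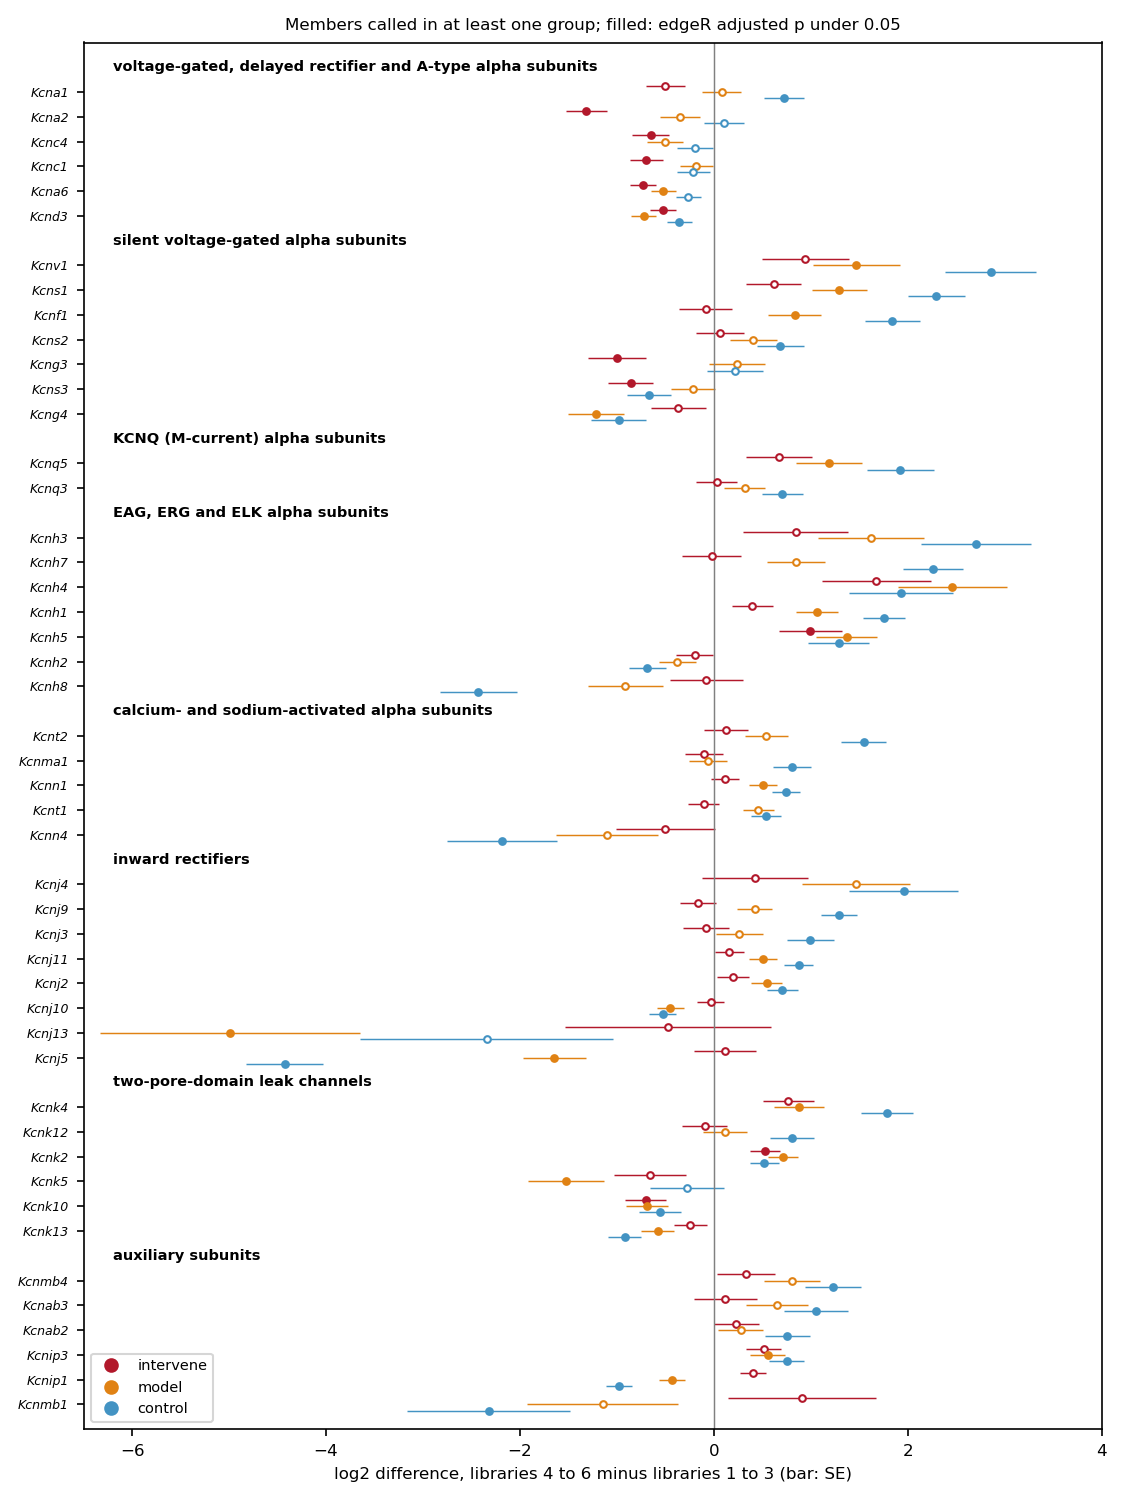
Log2 difference of libraries 4 to 6 minus libraries 1 to 3 (horizontal axis, bar SE) for 47 of the 50 channel genes called in at least 1 group, by family, with intervene, model and control drawn from top to bottom for each gene and filled points for edgeR adjusted p under 0.05. In intervene 2 points are filled on the right of 0 and 8 on the left, in model 13 and 10, and in control 28 and 12.

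The voltage-gated Kcna, Kcnb, Kcnc and Kcnd genes had 5 of the 8 lower calls in intervene, and were mostly not called in model (0 higher and 2 lower of 15) and in control (2 higher and 1 lower). The share called was 33.3%, 13.3% and 20% in intervene, model and control, against 14.9%, 18.7% and 38.2% of all genes. Kcna2, a channel of axons, had 92.8, 62.3 and 73.9 CPM in intervene libraries 4 to 6, against 265, 144 and 160 CPM in intervene libraries 1 to 3. The sets did not overlap, and the log2 difference was -1.31 ± 0.21 (edgeR adjusted p = 0.0028). In model Kcna2 had 114 to 117 CPM in libraries 4 to 6 and 117 to 172 CPM in libraries 1 to 3, and in control 117 to 139 CPM and 98.7 to 140 CPM. Those differences were -0.35 ± 0.21 (edgeR adjusted p = 0.254) and 0.11 ± 0.21 (adjusted p = 0.719). Kcna6, of the same subfamily, was lower with a log2 difference of -0.73 ± 0.13 in intervene (edgeR adjusted p = 0.00366) and -0.52 ± 0.13 in model (adjusted p = 0.0136), against -0.26 ± 0.13 in control (adjusted p = 0.123). Its intervene libraries 4 to 6 had 79.9, 58.2 and 68.9 CPM, against 128, 94.2 and 120 CPM in intervene libraries 1 to 3. The model call was lost without model 2, 4 or 6 (adjusted p from 0.0541 to 0.0697), and an antisense transcript overlaps 39.6% of the exon bases of Kcna6. Kcnc1, which encodes a fast delayed rectifier of rapidly firing neurons, and Kcnc4, of the same subfamily, were lower in intervene. Their log2 differences were -0.69 ± 0.17 and -0.65 ± 0.19 (edgeR adjusted p = 0.0148 and 0.0308). Both calls were lost without intervene 1, 5 or 6, and that of Kcnc4 also without intervene 3 (adjusted p from 0.0621 to 0.151) or without the low-count filter (0.0635).

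Kcnd3, an A-type channel that opens below the firing threshold and inactivates, was lower in libraries 4 to 6 of every group. It had 44.7, 44.2 and 33.9 CPM in intervene libraries 4 to 6, against 60.8, 56.6 and 58.9 CPM in intervene libraries 1 to 3. Model libraries 4 to 6 had 29.2, 39.2 and 34.4 CPM of Kcnd3, against 52.9, 58.9 and 58.0 CPM in model libraries 1 to 3. In control, libraries 4 to 6 had 41.5, 52.4 and 36.9 CPM, against 54.1, 56.5 and 56.9 CPM in control libraries 1 to 3. The sets did not overlap in any of the 3 groups, and libraries 1 to 3 of all groups lay within 52.9 to 60.8 CPM. The log2 difference was -0.52 ± 0.13 in intervene, -0.72 ± 0.13 in model and -0.35 ± 0.13 in control (edgeR adjusted p = 0.016, 0.00244 and 0.0417). The intervene call was lost without intervene 1 or 6 (adjusted p = 0.0583 and 0.0867), and the control call was not checked singly under the alternative runs. Kcnd2, the other abundant Kcnd gene, showed no such difference, with log2 values of -0.21 ± 0.12, -0.05 ± 0.12 and 0.03 ± 0.12 in intervene, model and control, none of which passed.

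Of the 9 silent subunits, 0 were higher and 2 lower in intervene, 3 and 1 in model, and 4 and 2 in control. These are 22.2%, 44.4% and 66.7% of the family, against 14.9%, 18.7% and 38.2% of all genes. Kcns1 had 12.9, 10.1 and 16.8 CPM in intervene libraries 4 to 6, against 7.88, 9.09 and 9.01 CPM in intervene libraries 1 to 3. In model, libraries 4 to 6 had 28.2, 16.4 and 24.4 CPM of Kcns1, against 13.8, 6.10 and 8.23 CPM in model libraries 1 to 3. The control libraries 4 to 6 had 26.8, 25.9 and 22.1 CPM, against 5.89, 3.35 and 5.90 CPM in control libraries 1 to 3. The sets were separate in each group and the gap was widest in control. The log2 difference was 0.62 ± 0.28 in intervene (edgeR adjusted p = 0.154), 1.29 ± 0.28 in model (adjusted p = 0.00764) and 2.30 ± 0.29 in control (adjusted p = 5.35e-05). Kcnv1 and Kcnf1 rose in model by 1.47 ± 0.45 and 0.83 ± 0.28 and in control by 2.85 ± 0.47 and 1.84 ± 0.28. Kcng4 went the other way in model and control, at 8.24, 5.60 and 5.67 CPM in model libraries 4 to 6 against 13.9, 15 and 16.5 CPM in model libraries 1 to 3. Its difference was -1.21 ± 0.29 in model and -0.98 ± 0.28 in control (edgeR adjusted p = 0.0107 and 0.013). Kcns3 was lower in intervene (-0.86 ± 0.23, edgeR adjusted p = 0.0206) and in control (-0.67 ± 0.23, adjusted p = 0.0267). Its intervene call was lost without intervene 1, 3, 5 or 6 (adjusted p from 0.0566 to 0.0872).

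Of the 5 genes of the KCNQ family, 0 were called in intervene, 1 was higher in model and 4 were higher in control. In that order of groups the share called was 0%, 20% and 80%, against 14.9%, 18.7% and 38.2% of all genes. Kcnq5 had 27.7, 47.0 and 50.5 CPM in intervene libraries 4 to 6, against 24.5, 30.7 and 23.4 CPM in intervene libraries 1 to 3. The model libraries 4 to 6 had 63.8, 63.0 and 75.0 CPM of Kcnq5, against 43.4, 17.8 and 27.2 CPM in model libraries 1 to 3. Control libraries 4 to 6 had 91.9, 87.5 and 79.6 CPM, against 34.1, 12.4 and 21.3 CPM in control libraries 1 to 3. The sets overlapped in intervene and were apart in model and control. The differences were 0.67 ± 0.34, 1.19 ± 0.34 and 1.92 ± 0.35 on the log2 scale in that order of groups (edgeR adjusted p = 0.197, 0.0281 and 0.000818). Kcnq3, a partner in M-current channels, rose in control by 0.71 ± 0.21 (edgeR adjusted p = 0.0159).

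The Kcnh family of EAG, ERG and ELK channels had 1 of 8 genes higher in intervene, 3 in model and 5 in control, with 0, 0 and 2 lower. These are 12.5%, 37.5% and 87.5% of the family, against 14.9%, 18.7% and 38.2% of all genes. The summed CPM of the 8 genes was 156 ± 12.3 in intervene, 260 ± 10.6 in model and 311 ± 15.9 in control libraries 4 to 6, against 119 ± 20.8, 127 ± 30.9 and 98.8 ± 18.7 in libraries 1 to 3 of the same groups (SD, n = 3 each). Kcnh1, an EAG channel of neurons, had 22.2, 23.2 and 24.4 CPM in intervene libraries 4 to 6, against 15.5, 23.9 and 13.5 CPM in intervene libraries 1 to 3. Model libraries 4 to 6 had 41.4, 41.7 and 39.0 CPM of Kcnh1, against 24.8, 15.3 and 18.2 CPM in model libraries 1 to 3. In control, libraries 4 to 6 had 49.4, 56.1 and 44.2 CPM, against 18.2, 10.8 and 15.1 CPM in control libraries 1 to 3. The sets overlapped in intervene, and in libraries 4 to 6 the 3 groups were fully apart. The log2 difference between the sets was 0.40 ± 0.21 in intervene (edgeR adjusted p = 0.214), 1.06 ± 0.21 in model (adjusted p = 0.0042) and 1.76 ± 0.21 in control (adjusted p = 3.47e-05).

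Kcnh7, an ERG channel, behaved much like Kcnh1 in control, with 74.1, 62.4 and 47.7 CPM in libraries 4 to 6 against 12.1, 10.2 and 16.2 CPM in libraries 1 to 3 (2.26 ± 0.31, edgeR adjusted p = 0.000107). In intervene it had 16.3 to 19.9 CPM in libraries 4 to 6 and 13.7 to 25.1 CPM in libraries 1 to 3, and in model 35.7 to 39.8 CPM and 11.1 to 30.6 CPM. Those differences, -0.02 ± 0.30 and 0.85 ± 0.30, did not pass (edgeR adjusted p = 0.972 and 0.0601). Kcnh2, another ERG channel, fell in control with a log2 difference of -0.69 ± 0.19 (edgeR adjusted p = 0.0106). Kcnh4, an ELK channel, rose in model by 2.46 ± 0.56 and in control by 1.93 ± 0.54 (edgeR adjusted p = 0.0099 and 0.0113), and Kcnh3, another, rose in control by 2.71 ± 0.57 (adjusted p = 0.00246). Kcnh3 was at 4.07 CPM in control 2, far below the 34.0 and 32.8 CPM of controls 1 and 3. Kcnh8, the third ELK gene, fell in control, to 0.321, 0.243 and 0.199 CPM in libraries 4 to 6 against 1.51, 1.39 and 1.22 CPM in libraries 1 to 3. Its difference of -2.43 ± 0.40 (edgeR adjusted p = 0.000272) rests on 6 to 14 counts in each of control libraries 4 to 6. Kcnh5, the second EAG gene, was higher in every group, at 3.04, 3.15 and 2.67 CPM in intervene libraries 4 to 6 against 1.93, 1.23 and 1.31 CPM in intervene libraries 1 to 3. Its log2 difference was 0.99 ± 0.33 in intervene, 1.37 ± 0.32 in model and 1.29 ± 0.32 in control (edgeR adjusted p = 0.0495, 0.00901 and 0.0046). The intervene call was lost without any 1 of the 6 intervene libraries (adjusted p from 0.0597 to 0.147) and with voom, library totals or log2 FPKM (adjusted p = 0.0661, 0.0759 and 0.168), and the model call without model 2 (adjusted p = 0.0536).

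**Figure D3:**
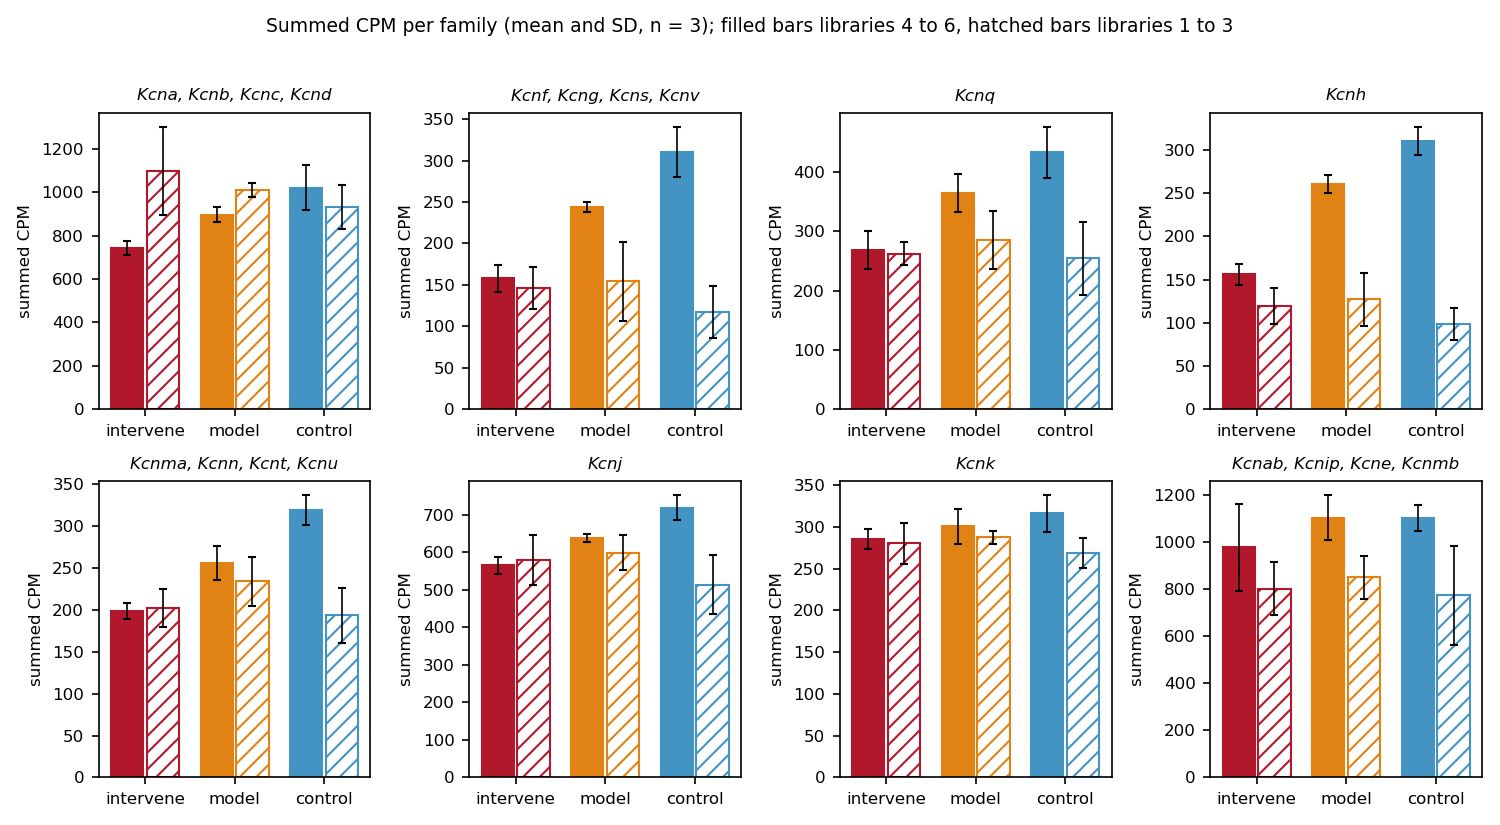
Summed CPM of each gene family (vertical axis; mean and SD, n = 3 libraries) for intervene, model and control, with filled bars for libraries 4 to 6 and hatched bars for libraries 1 to 3. In libraries 4 to 6 the Kcnh sum is 156 in intervene, 260 in model and 311 in control, while the Kcnk sum differs little, at 286, 301 and 316. A sum can hide opposite moves of single genes. Of the 11 Kcnk genes, 1 was higher and 2 lower in intervene against control within libraries 4 to 6 (27.3% called, against 25.9% of all genes, by edgeR).

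Among the 8 Kcnma, Kcnn, Kcnt and Kcnu genes, 0 were called in intervene, 1 higher in model, and 4 higher and 1 lower in control. The share called was 0%, 12.5% and 62.5% in that order, against 14.9%, 18.7% and 38.2% of all genes. Kcnt2, a sodium-activated channel, had 34.7, 29.0 and 23.5 CPM in control libraries 4 to 6, against 10.1, 7.00 and 12.8 CPM in control libraries 1 to 3. It rose there by 1.54 ± 0.23 (edgeR adjusted p = 0.00013), while its differences of 0.12 ± 0.23 in intervene and 0.54 ± 0.22 in model did not pass. Kcnn1, a small-conductance calcium-activated channel that follows the action potential with a hyperpolarization, rose by 0.51 ± 0.15 in model and 0.75 ± 0.15 in control (edgeR adjusted p = 0.0245 and 0.000939). Its model call was lost without model 2, 3, 5 or 6 (adjusted p from 0.0648 to 0.0968). Kcnma1 rose in control by 0.81 ± 0.20 and Kcnt1 by 0.54 ± 0.16 (edgeR adjusted p = 0.00472 and 0.0134). Kcnn4, the intermediate-conductance channel known from blood cells and microglia, fell in control, with 0.0641, 0.174 and 0.266 CPM in libraries 4 to 6 against 0.984, 0.995 and 0.288 CPM in libraries 1 to 3. Control libraries 4 to 6 held only 2, 10 and 8 counts of it, and the difference was -2.19 ± 0.57 (edgeR adjusted p = 0.00665; 0.065 with log2 FPKM).

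The inward rectifiers held the channel gene with the lowest p of the control comparison. Kcnj5, a G protein-gated rectifier best known as a partner of Kcnj3 in the heart, had 4.36, 2.68 and 1.92 CPM in intervene libraries 4 to 6, against 2.50, 2.04 and 3.73 CPM in intervene libraries 1 to 3. In model, libraries 4 to 6 had 1.23, 1.48 and 0.945 CPM of Kcnj5, against 3.68, 3.58 and 4.21 CPM in model libraries 1 to 3. The control libraries 4 to 6 had 0.256, 0.139 and 0.199 CPM, against 3.28, 5.73 and 3.53 CPM in control libraries 1 to 3. The intervene sets overlapped, and the other sets were apart, with 6 to 8 counts in each of control libraries 4 to 6. The log2 difference was 0.12 ± 0.32 in intervene (edgeR adjusted p = 0.84), -1.64 ± 0.33 in model (adjusted p = 0.00404) and -4.43 ± 0.40 in control (adjusted p = 3.87e-06), the last a 21.5-fold lower level. The group means in libraries 4 to 6 ran intervene above model above control, as did those of Tcf7l2 in the same libraries. The model and control libraries overlapped for Tcf7l2 and were apart for Kcnj5. The part of that marker's difference in the Kcnj5 values was not tested. Of the other G protein-gated rectifiers, Kcnj9 and Kcnj3 moved the opposite way in control, and Kcnj6 was not called (0.56 ± 0.34, edgeR adjusted p = 0.21). Kcnj9 had 105, 107 and 99.0 CPM in control libraries 4 to 6, against 36.2, 40.3 and 50.9 CPM in control libraries 1 to 3 (1.29 ± 0.18, edgeR adjusted p = 0.000106), and Kcnj3, which shares 31.1% of its exon bases with an opposite-strand RNA, rose by 1.00 ± 0.24 (adjusted p = 0.0047).

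Of the 12 inward rectifiers tested, 0 were called in intervene, 2 higher and 3 lower in model, and 5 higher and 2 lower in control. These are 0%, 41.7% and 58.3% of the family, against 14.9%, 18.7% and 38.2% of all genes. Kcnj10, the astrocytic potassium uptake channel, had 252, 192 and 186 CPM in intervene libraries 4 to 6, against 250, 180 and 214 CPM in intervene libraries 1 to 3. The model libraries 4 to 6 had 148, 162 and 150 CPM of Kcnj10, against 178, 197 and 252 CPM in model libraries 1 to 3. Control libraries 4 to 6 had 150, 155 and 134 CPM, against 208, 210 and 214 CPM in control libraries 1 to 3. The intervene sets overlapped, and both other groups were lower in libraries 4 to 6 with a log2 difference of -0.45 ± 0.14 in model and -0.53 ± 0.14 in control (edgeR adjusted p = 0.0342 and 0.00744). The summed CPM of 11 astrocyte markers was 4451 to 4721 in model and 4187 to 4486 in control libraries 4 to 6, against 3891 to 4353 and 4112 to 4336 in libraries 1 to 3. Taken singly, 2 of the 11 were higher and 3 lower in model (median -0.11), and 1 higher and 4 lower in control (median -0.27), and their part in the Kcnj10 values was not tested. Kcnj11, the pore of the ATP-sensitive channel, and Kcnj2, a strong rectifier, rose in model (0.51 ± 0.15 and 0.54 ± 0.16) and in control (0.87 ± 0.15 and 0.70 ± 0.16). Kcnj4 rose in control by 1.96 ± 0.56 (edgeR adjusted p = 0.0143), where control 2 held 7.72 CPM against 67.2 and 40.8 CPM in controls 1 and 3. Kcnj13 fell in model with a log2 difference of -4.99 ± 1.34 (edgeR adjusted p = 0.0226), a call lost without model 2, 4, 5 or 6 (adjusted p from 0.0625 to 0.0804), without the low-count filter (0.0504) and with voom (0.125).

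Of the 11 leak channels, 1 was higher and 1 lower in intervene, 2 and 3 in model, and 3 and 2 in control. In that order of groups 18.2%, 45.5% and 45.5% were called, against 14.9%, 18.7% and 38.2% of all genes. Kcnk2, which encodes the mechanosensitive TREK channel, was higher in all 3 groups. It had 53.9, 72.9 and 48.6 CPM in intervene libraries 4 to 6, against 36.3, 38.6 and 46.9 CPM in intervene libraries 1 to 3. Model libraries 4 to 6 had 56.8, 60.3 and 79.2 CPM of Kcnk2, against 42.4, 38.3 and 38.9 CPM in model libraries 1 to 3. In control, libraries 4 to 6 had 69.7, 55.8 and 63.8 CPM, against 47.8, 41.4 and 42.4 CPM in control libraries 1 to 3. The sets did not overlap in any group, and the differences were 0.53 ± 0.15, 0.71 ± 0.15 and 0.52 ± 0.15 on the log2 scale in intervene, model and control (edgeR adjusted p = 0.029, 0.00593 and 0.0122). The intervene call was lost without intervene 1, 2 or 5 (adjusted p from 0.0638 to 0.159) and with library totals in place of TMM scaling or with log2 FPKM (adjusted p = 0.0835 and 0.103). An antisense transcript overlaps 12.2% of its exon bases. Kcnk10, a close relative of Kcnk2, moved the other way in all 3 groups with a log2 difference of -0.70 ± 0.22, -0.69 ± 0.22 and -0.56 ± 0.21 (edgeR adjusted p = 0.0375, 0.0359 and 0.0488). All 3 calls of Kcnk10 lay close to the threshold, and they were not checked singly under the alternative runs. Kcnk4, the mechanosensitive TRAAK channel, rose in model by 0.88 ± 0.26 and in control by 1.78 ± 0.27 (edgeR adjusted p = 0.0283 and 0.000132), and shares 13.1% of its exon bases with Catsperz. Kcnk13, a leak channel known from microglia, fell in control with a log2 difference of -0.92 ± 0.17 and in model with a log2 difference of -0.58 ± 0.17 (edgeR adjusted p = 0.000664 and 0.0279). Kcnk5, an alkaline-activated channel, fell in model with a log2 difference of -1.52 ± 0.39 (edgeR adjusted p = 0.0147), a call lost without model 3, 4 or 6 (adjusted p from 0.0516 to 0.0579).

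Of the 12 auxiliary subunits, 0 were called in intervene, 1 higher and 1 lower in model, and 4 higher and 2 lower in control. The share called was 0%, 16.7% and 50% in that order, against 14.9%, 18.7% and 38.2% of all genes. Kcnip1, which binds calcium and raises the surface expression of Kcnd channels, had 72.3, 61.2 and 57.4 CPM in intervene libraries 4 to 6, against 45.0, 49.0 and 50.0 CPM in intervene libraries 1 to 3. In model, libraries 4 to 6 had 42.5, 44.3 and 37.6 CPM of Kcnip1, against 41.4, 60.1 and 66.7 CPM in model libraries 1 to 3. The control libraries 4 to 6 had 30.8, 30.4 and 30.9 CPM, against 57.0, 63.2 and 60.9 CPM in control libraries 1 to 3. The sets were apart in intervene and in control, in opposite directions, and overlapped in model. The log2 difference was 0.41 ± 0.13 in intervene (edgeR adjusted p = 0.0512), -0.44 ± 0.13 in model (adjusted p = 0.0336) and -0.98 ± 0.14 in control (adjusted p = 7.88e-05). Kcnip3, of the same family, rose in model by 0.56 ± 0.18 and in control by 0.75 ± 0.18 (edgeR adjusted p = 0.0447 and 0.00461), and Kcnip4 stayed between 74.0 and 107 CPM in all 18 libraries with no call. Kcnab2 and Kcnab3 rose in control by 0.76 ± 0.23 and 1.05 ± 0.33 (edgeR adjusted p = 0.0183 and 0.0205).

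**Figure D4:**
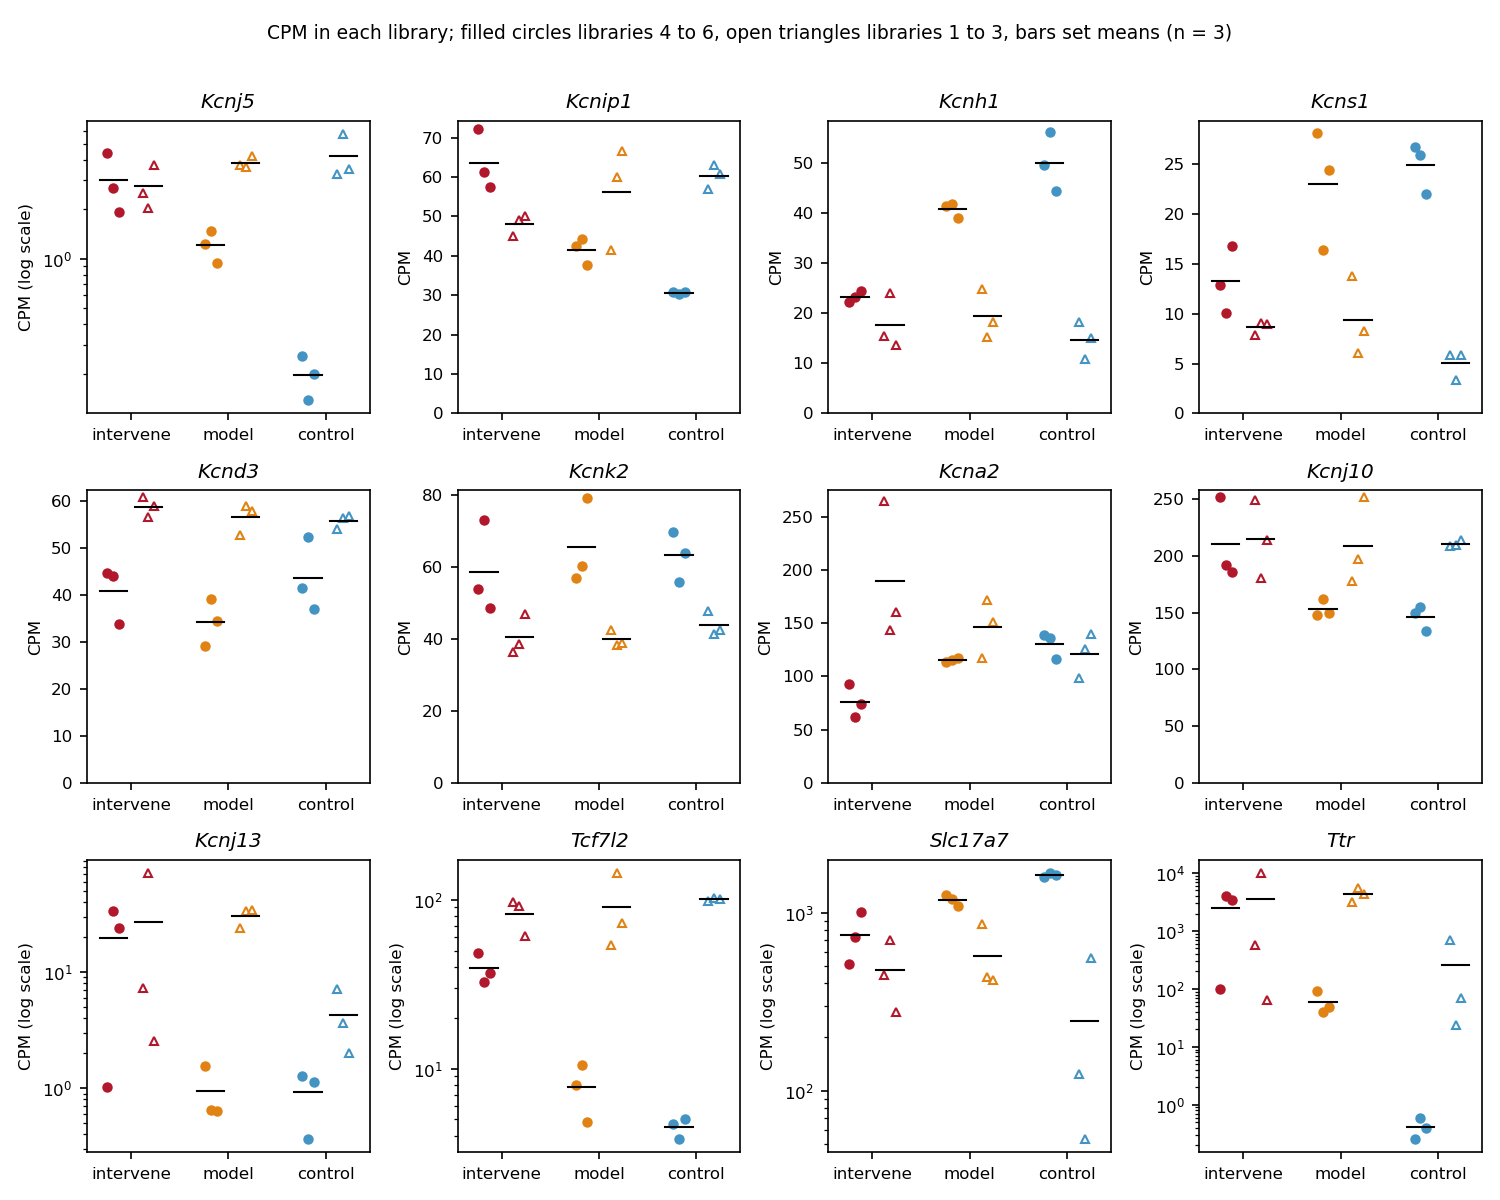
CPM in each library (vertical axis, log scale where labelled) of 9 channel genes and of the markers Tcf7l2, Slc17a7 and Ttr, by group; filled circles are libraries 4 to 6, open triangles libraries 1 to 3, and bars the means of 3. Kcnj5 lies between 0.139 and 0.256 CPM in control libraries 4 to 6 and between 1.92 and 4.36 CPM in intervene libraries 4 to 6, and Kcnd3 is lower in the circles of every group.

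Promoter sequences are shown for 4 genes that stand for these patterns: Kcnj5 and Kcnh1, with the lowest p among the lower and the higher genes of control, and Kcnd3 and Kcnh5, called in all 3 groups. Each runs from 250 bases before to 50 bases after the start of the gene, is taken from RefSeq on GRCm38.p6 and is written on the strand of the gene, with every CG pair in capitals.
Kcnj5, chr9:32344295-32344594, minus strand: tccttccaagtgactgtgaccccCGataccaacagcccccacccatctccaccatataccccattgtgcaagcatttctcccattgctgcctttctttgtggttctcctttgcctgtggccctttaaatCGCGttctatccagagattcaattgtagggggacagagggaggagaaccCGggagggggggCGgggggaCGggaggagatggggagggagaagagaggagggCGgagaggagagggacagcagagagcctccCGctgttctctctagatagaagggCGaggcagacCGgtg
Kcnh1, chr1:192190527-192190826, plus strand: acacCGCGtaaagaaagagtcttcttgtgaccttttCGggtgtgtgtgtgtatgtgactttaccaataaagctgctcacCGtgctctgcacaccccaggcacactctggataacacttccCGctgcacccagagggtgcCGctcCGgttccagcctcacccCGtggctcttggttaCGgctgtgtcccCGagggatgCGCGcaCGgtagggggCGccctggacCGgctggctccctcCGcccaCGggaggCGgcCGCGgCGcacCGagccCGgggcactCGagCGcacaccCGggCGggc
Kcnd3, chr3:105451640-105451939, plus strand: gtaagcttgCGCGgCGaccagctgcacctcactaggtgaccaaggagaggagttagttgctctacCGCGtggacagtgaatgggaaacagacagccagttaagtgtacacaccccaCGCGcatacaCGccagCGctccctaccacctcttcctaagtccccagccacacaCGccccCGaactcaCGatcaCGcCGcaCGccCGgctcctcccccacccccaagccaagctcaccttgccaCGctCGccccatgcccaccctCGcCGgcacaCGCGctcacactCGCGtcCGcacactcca
Kcnh5, chr12:75177283-75177582, minus strand: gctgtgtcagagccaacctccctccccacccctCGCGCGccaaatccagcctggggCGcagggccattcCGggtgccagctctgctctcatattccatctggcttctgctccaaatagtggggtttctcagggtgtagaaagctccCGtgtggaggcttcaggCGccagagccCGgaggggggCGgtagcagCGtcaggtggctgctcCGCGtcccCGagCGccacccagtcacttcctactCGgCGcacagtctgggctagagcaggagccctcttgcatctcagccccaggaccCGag
The Kcnj5 stretch held 10 CG pairs at 58.3% G and C, and those of Kcnh1, Kcnd3 and Kcnh5 held 27, 25 and 17 at 66%, 64% and 65.3%. The letters ATCAAAG, the core of the motif bound by the TCF factors, and TATAAA, the TATA box, were in none of the 4 on either strand. RefSeq gave 80 such stretches for 57 of the tested channel genes, of which 3.75% held ATCAAAG and 5% TATAAA, against 3.73% and 13.6% of the 32851 stretches of all genes. Their median was 10 CG pairs and 60% G and C, against 7 pairs and 52.7%.

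Within libraries 1 to 3, no channel gene differed between the groups, and no other gene did (0% of 18452 in each comparison by edgeR). At an unadjusted p under 0.05 there were 0 of the 80 channel genes in intervene against model, 9 in model against control and 6 in intervene against control, beside 700, 1075 and 1579 of all 18452 genes, and DESeq2 called 0 in each. The lowest p were those of Kcna2 in intervene against model (0.37 ± 0.21, edgeR adjusted p = 1.00) and in intervene against control (0.64 ± 0.21, adjusted p = 0.424), and of Kcns1 in model against control (0.88 ± 0.29, adjusted p = 0.805). Within libraries 4 to 6, model against control also had 0 called (background 0%), with 11 at an unadjusted p under 0.05 (1876 of all genes) and 1 by DESeq2. That gene was Kcnj5, whose difference was 2.66 ± 0.40 by edgeR (adjusted p = 0.0763), from 0.945 to 1.48 CPM in model and 0.139 to 0.256 CPM in control. DESeq2 put it at 2.68 with an adjusted p of 1.08e-05, and edgeR without the low-count filter at 2.65 with an adjusted p of 0.00283. Kcnip1 came next, at 0.43 ± 0.14 (edgeR adjusted p = 0.294).

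In intervene against model within libraries 4 to 6, Kcnj5 and Kcnip1 were higher (2 of 80, background 3.66%) and Kcnh1 and Kcnj9 lower (2 of 80, background 2.05%). All 4 genes had separate groups in the values given above: Kcnj5 at 1.92 to 4.36 CPM in intervene and 0.945 to 1.48 CPM in model, Kcnip1 at 57.4 to 72.3 and 37.6 to 44.3 CPM, Kcnh1 at 22.2 to 24.4 and 39.0 to 41.7 CPM. Kcnj9 had 60.4, 32.3 and 53.7 CPM in intervene, against 89.3, 84.4 and 76.3 CPM in model. The log2 differences were 1.29 ± 0.33 for Kcnj5, 0.62 ± 0.13 for Kcnip1, -0.81 ± 0.21 for Kcnh1 and -0.77 ± 0.18 for Kcnj9 (edgeR adjusted p = 0.0315, 0.0172, 0.0355 and 0.0242). The share called, 5% of the channel genes, was near the background of 5.71%, and their median difference was -0.21 against 0.00 for all genes. These calls depended on single libraries: none of the 4 held without model 4 or intervene 5, and 1 held without model 5 or model 6. The count also depended on the method, with 17 by DESeq2 and 6 with the replicate number as a block. Neither count has the share of all genes from its own run beside it, so neither is set against the 5.71% above. Under the block Kcnh1 lost its call (edgeR adjusted p = 0.0625). Kcnh1 also lost it without the low-count filter (0.0704), Kcnip1 with log2 FPKM (0.0528), and Kcnj5 with library totals, voom and log2 FPKM (adjusted p = 0.054, 0.0723 and 0.144). The sum of 14 thalamic markers was 388 to 545 CPM in these intervene libraries and 195 to 283 CPM in these model libraries, and its part in the differences was not tested.

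In intervene against control within libraries 4 to 6, 9 of the 80 channel genes were higher (background 14.7%) and 26 lower (background 11.2%), 43.8% called in all against 25.9% of all genes. The median difference of the channel genes was -0.30, against 0.00 for all genes. The 9 higher genes were Kcnj5 (3.95 ± 0.40), Kcnip1 (1.05 ± 0.14), Kcnh8 (1.67 ± 0.41), Kcnk13 (0.77 ± 0.17), Kcnj10 (0.52 ± 0.14), Kcnh2 (0.57 ± 0.19), Kcnj13, Kcnn4 and Kcnmb1, the smooth muscle subunit of the Kcnma1 channel. Kcnj13 had the largest log2 difference of the channel genes, 4.50, but its value in intervene 4 lay within the range of the control libraries. Kcnmb1 had 0 counts in control 4. The intervene libraries of Kcnip1, at 57.4 to 72.3 CPM, lay far above the control libraries at 30.4 to 30.9 CPM (edgeR adjusted p = 0.000121), and those of Kcnj5 at 1.92 to 4.36 CPM above 0.139 to 0.256 CPM (adjusted p = 2.09e-05). The lower genes were 4 of 15 in the Kcna to Kcnd families, 4 of 9 silent subunits and 4 of 5 KCNQ genes. They also included 2 of 8 Kcnh genes, 4 of 8 Kcnma, Kcnn, Kcnt and Kcnu genes and 4 of 12 inward rectifiers. The rest were 2 of 11 leak channels and 2 of 12 auxiliary subunits. Kcnh7, at 16.3 to 19.9 CPM in intervene and 47.7 to 74.1 CPM in control, had the largest drop, -1.77 ± 0.31 (edgeR adjusted p = 0.00106). Kcnf1 had 38.1, 31.8 and 37.0 CPM in intervene libraries, against 97.6, 124 and 79.2 CPM in control libraries, with a log2 difference of -1.49 ± 0.28 (edgeR adjusted p = 0.0017). Kcnj9 and Kcnt2 had log2 differences of -1.09 ± 0.18 and -1.26 ± 0.23 (edgeR adjusted p = 0.000763 and 0.00114). The count of 35 fell to 19, 18, 22 and 19 without control 4, control 5, intervene 4 and intervene 5, and to 27 with the replicate number as a block. The sum of 14 thalamic markers was 388 to 545 CPM in intervene and 166 to 176 CPM in control, and that of 15 cortical and hippocampal markers 4004 to 8340 CPM in intervene and 9660 to 10207 CPM in control. The sum of 10 oligodendrocyte markers was 14546 to 16232 CPM in intervene and 7328 to 8123 CPM in control. Their part in these differences was not tested.

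**Figure D5:**
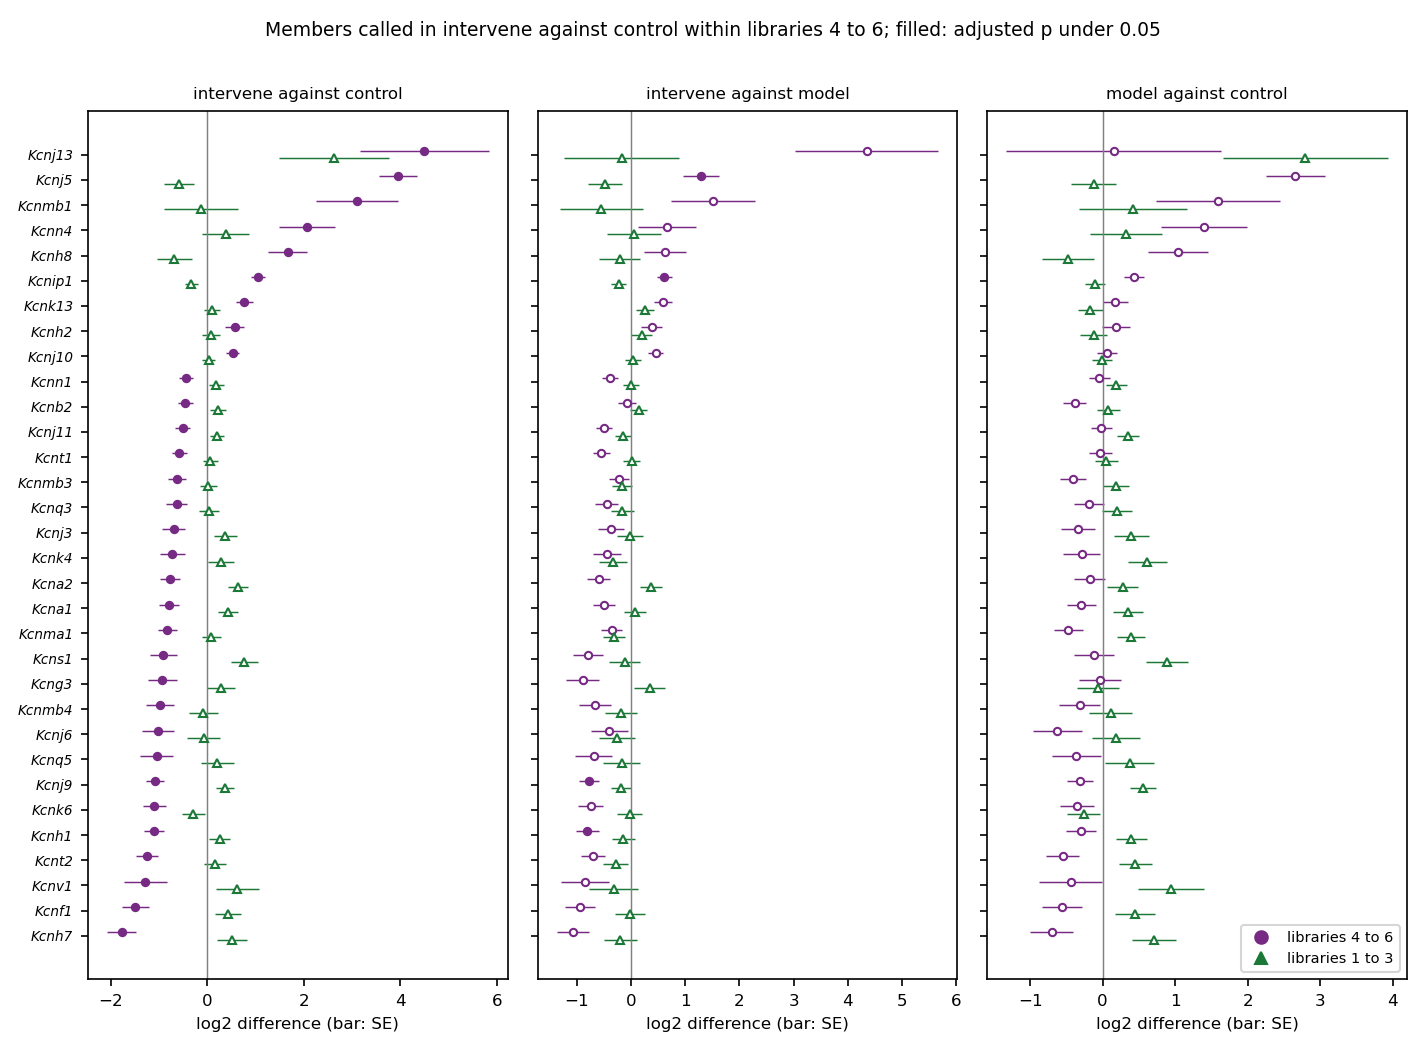
Log2 differences (horizontal axis, bar SE) of 32 of the 35 channel genes called in intervene against control within libraries 4 to 6, shown for 3 comparisons, with circles for libraries 4 to 6, triangles for libraries 1 to 3 and filled symbols for edgeR adjusted p under 0.05. All filled circles of intervene against model are Kcnj5, Kcnip1, Kcnj9 and Kcnh1, and no triangle is filled. The 3 panels share libraries.

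Whether the group differences themselves depended on the set was tested as the difference between libraries 4 to 6 and libraries 1 to 3. For intervene against control, 4 channel genes had a higher difference in libraries 4 to 6 (background 9.54%) and 15 a lower one (background 8.37%). The higher were Kcnj5 (4.54 ± 0.51, edgeR adjusted p = 0.000366), Kcnip1 (1.38 ± 0.19, adjusted p = 0.000712), Kcnh8 (2.35 ± 0.55, adjusted p = 0.00882) and Kcna5 (1.98 ± 0.65, adjusted p = 0.0497). Kcna5, a delayed rectifier, had 13.8, 14.4 and 9.71 CPM in intervene libraries 4 to 6, against 5, 6.14 and 8.24 CPM in control libraries 4 to 6. In libraries 1 to 3 it had 4.14, 3.04 and 12.4 CPM in intervene, against 20.7, 11.8 and 6.69 CPM in control. Its call was lost without any 1 of 10 of the 12 libraries (adjusted p from 0.0522 to 0.132), and with library totals, the replicate block or no low-count filter (adjusted p = 0.065, 0.0715 and 0.135). The lower genes were led by Kcnj9 (-1.45 ± 0.26, edgeR adjusted p = 0.00232), Kcnh7 (-2.29 ± 0.43, adjusted p = 0.00345), Kcnf1 (-1.93 ± 0.39, adjusted p = 0.00533) and Kcna2 (-1.42 ± 0.30, adjusted p = 0.00533). Without control 1, 3 genes were higher and 12 lower, and without intervene 1 the count was 12. For intervene against model and for model against control, edgeR called 0 channel genes (background 0.352% and 0%, and in intervene against model 0.276% higher and 0.0759% lower). At an unadjusted p under 0.05 there were 15 and 19 of the 80, beside 3145 and 2079 of all 18452 genes. DESeq2 called 3 and 2, which are not set against its own share of all genes. The lowest p in intervene against model were those of Kcnip1 (0.84 ± 0.19, edgeR adjusted p = 0.0587) and Kcnj5 (1.76 ± 0.45, adjusted p = 0.0817). In model against control they were those of Kcnj5 (2.78 ± 0.51, edgeR adjusted p = 0.148) and Kcnj9 (-0.87 ± 0.26, adjusted p = 0.243).

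The proteins and genes that work with these channels, a list of 36 that includes scaffold proteins, auxiliary proteins and ion pumps, had 2 higher and 5 lower of 35 tested between the intervene sets, 7 and 6 between the model sets and 11 and 6 between the control sets. These are 20%, 37.1% and 48.6% of the list, against 14.9%, 18.7% and 38.2% of all genes. Dpp6, an auxiliary protein of the Kcnd channels, fell in control with a log2 difference of -0.72 ± 0.10 (edgeR adjusted p = 9.50e-05) and in model with a log2 difference of -0.61 ± 0.10 (adjusted p = 0.00159). It had 127, 140 and 130 CPM in control libraries 4 to 6, against 198, 220 and 237 CPM in control libraries 1 to 3. Amigo2, of a family that includes a partner of the Kcnb channels, fell in control with a log2 difference of -2.52 ± 0.31 (edgeR adjusted p = 5.32e-05). Cntn2, which gathers Kcna channels beside the node of Ranvier, fell in intervene with a log2 difference of -0.72 ± 0.11 and in model with a log2 difference of -0.70 ± 0.11 (edgeR adjusted p = 0.00231 and 0.00141). Slc12a2, a sodium, potassium and chloride cotransporter, fell in the same groups with a log2 difference of -0.64 ± 0.12 and -0.92 ± 0.12 (edgeR adjusted p = 0.0037 and 0.00032), and Dlg4, a scaffold protein that binds Kcna channels, rose in intervene by 0.76 ± 0.16 (adjusted p = 0.00772).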

How the data were processed

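RNA of 18 libraries was sequenced by the authors. The deposited table holds a raw count per gene and an FPKM value per gene for each library. Per the submitters' processing notes, HISAT2, featureCounts and GRCm39 were used; versions, and whether counting used strand, were not stated there. Among deposited counts from 2 to 200, 76% to 83.3% were even, so the counts do not behave as single independent reads. The length behind the deposited FPKM had a median of 2 times the exon length in GENCODE M21, so genes were compared as CPM (TMM-scaled) per kilobase of exon, and FPKM served for choosing named genes and as an alternative with a pseudocount of 1.

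Genes were filtered with edgeR's filterByExpr and tested with the quasi-likelihood test of edgeR 4.0.16 in R 4.3.3, with Benjamini-Hochberg adjustment over all 18452 genes and a threshold of 0.05. Fits compared the 3 groups over all libraries, libraries 4 to 6 with 1 to 3 in each group, the groups within each set, and the difference between sets. DESeq2 1.42.0, limma 3.58.1 (voom, and log2 FPKM), library totals, no filter, a replicate block and leaving out each library were alternatives. The named genes were up to 6 called genes of lowest p per direction between sets, up to 4 in the other comparisons or the 2 of lowest p where none was called, the 3 of highest FPKM in each family, and those called in all 3 groups; other genes with values were named after these were seen. The members, lists and division by library number were chosen with earlier results of these data known. The tests were tried on simulated counts first. Same-numbered model and control libraries deviated together from their group means in 6 of 6 pairs (correlations 0.18 to 0.63), but in 3 of 6 pairs from the means of group and set; the block changed no call between those groups. A few genes are included in the fits, sums and counts but are not reported here by name or in figures. Promoters are those of RefSeq, GRCm38.p6.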

Additional observations from a re-analysis of the deposited data

Results flagged for a closer look

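In 87 groups of 6 libraries, 1 had a library far from the other 5, and chance flags about 1 in 20 groups. Kcnn4, in that group, was at 1.68 CPM in intervene 2, with the next library at 0.872 CPM.

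For the channel genes named here the log2 difference of intervene against control itself differed between libraries 4 to 6 and libraries 1 to 3 (edgeR interaction term, adjusted p from 0.000366 to 0.0497). It was higher in libraries 4 to 6 for Kcnj5 (4.54), Kcnh8 (2.35), Kcna5 (1.98) and Kcnip1 (1.38). Among the voltage-gated and silent subunits it was lower for Kcnf1 (-1.93), Kcns1 (-1.68), Kcna2 (-1.42), Kcna1 (-1.22) and Kcnb2 (-0.67). In the Kcnh family it was lower for Kcnh7 (-2.29) and Kcnh1 (-1.36). Among the inward rectifiers it was lower for Kcnj9 (-1.45), Kcnj3 (-1.07) and Kcnj11 (-0.71). Among the channels opened by calcium or sodium it was lower for Kcnt2 (-1.42), Kcnma1 (-0.91) and Kcnn1 (-0.63).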

How the results depend on the processing

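Single genes were followed for the called genes of lowest p in each comparison, or the 2 of lowest p where none was called. Among these, no direction was reversed under any alternative run. Other differences given with values were not checked gene by gene. DESeq2 called 17 channel genes between the intervene sets (10 by edgeR), 17 in intervene against model within libraries 4 to 6 (4 by edgeR), 1 in model against control within libraries 4 to 6 (0), and, for the difference between sets, 29 in intervene against control (19), 3 in intervene against model (0) and 2 in model against control (0). Without the low-count filter, 1 was called in model against control within libraries 4 to 6, and 1 in each of the differences between sets of intervene against model and of model against control. With library totals, the intervene sets had 0 higher and 10 lower (2 and 8 with TMM), and intervene against model within libraries 4 to 6 had 1 higher and 5 lower (2 and 2). Log2 FPKM gave 16 higher and 6 lower between the model sets (13 and 10), and 0 higher and 9 lower between the intervene sets. The share of all genes called under each alternative run is not given here. Counts from these runs show how far the channel calls moved and are not set against a background.

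Leaving out 1 library gave 30 to 42 calls between the control sets, 8 to 28 between the model sets and 2 to 13 between the intervene sets. Within libraries 4 to 6 it gave 0 to 4 in intervene against model and 18 to 29 in intervene against control, and for the difference between sets 0 to 3 in intervene against model and 12 to 27 in intervene against control. The other comparisons stayed at 0. With the replicate number as a block, the paired counts were 6 in intervene against model and 27 in intervene against control within libraries 4 to 6, 18 for the difference between sets of intervene against control, and 0 in the other comparisons that can take it; between sets no number is shared. Few counts limit Kcnj5, Kcnh8, Kcnn4 and Kcnmb1 in control libraries 4 to 6, and the cause of these shifts was not tested.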
